A study of Mus musculus with 6 samples.

Results

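Adult mouse cardiomyocytes were compared with neonatal mouse cardiac fibroblasts across 18193 genes. The comparison used 4 of the 6 arrays of the series, 2 adult cardiomyocyte arrays and 2 neonatal fibroblast arrays, grouped by their source name. The adult cells came from male C57BL/6J mice of 8 weeks, and the heart was dissociated by Langendorff perfusion through the aorta. The fibroblasts came from C57BL/6J mice of both sexes on postnatal day 1, after dissociation and separation on Percoll, a density medium. The labels' protocols give trypsin and collagenase for all cells. They also describe growing dissociated cells on a dish and checking for remaining cardiomyocytes with TMRM, a mitochondrial dye, while the design text calls the cells fresh. The labels name no altered allele and no treatment agent. Cell type, age, sex and isolation differ together between the groups and cannot be told apart. The remaining 2 arrays, neonatal cardiomyocytes of day 1 isolated like the fibroblasts, entered the fit and are used below to place each difference.

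A cardiomyocyte is the contracting cell of the heart. It fills its interior with sarcomeres, stores calcium in the sarcoplasmic reticulum, burns mainly fatty acids in densely packed mitochondria, and leaves the cell cycle soon after birth. A cardiac fibroblast builds the collagen-rich matrix between the muscle cells, and in the newborn heart it still divides and lays down matrix for the growing wall.

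Values are log2 expression values per probe set, with 1 probe set for each gene, so a difference of 1 is a doubling. Levels are compared between arrays for the same gene, never between genes. Array medians ran from 5.60 to 5.67, and the adult upper quartiles (7.45 and 7.58) were below those of both fibroblast arrays (7.75). Across genes the arrays of a group correlated at 0.974 (adult) and 0.963 (fibroblast). The neonatal cardiomyocyte arrays correlated at 0.957, and fibroblast replicate 2 correlated at 0.958 with neonatal cardiomyocyte replicate 2. The median absolute difference between the arrays of a group was 0.267 in adult cells and 0.262 in fibroblasts. A difference of over 2 log2 units within a group was found for 115 genes in adult cells, of which 94 were higher on replicate 2. In fibroblasts 400 genes differed by that much, 242 of them higher on replicate 1. The labels do not say whether arrays of a group came from separate preparations, so a p-value here speaks only to the spread among these arrays, which may be technical. For the neonatal arrays of replicate 1, the title and the source name disagree about which of the neonatal cell types was used.

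Marker genes were examined first, because of these titles. Ckmt2, the mitochondrial creatine kinase of striated muscle, was at 13.69 and 13.45 on the adult arrays, and its fibroblast values were 4.29 and 7.93. Asb15, an ankyrin-repeat protein of the ubiquitin ligase machinery of striated muscle, was at 11.18 and 10.96 against 2.96 and 3.67. Both genes were high on both adult arrays and the groups did not overlap. Cemip, a hyaluronan-degrading protein, was at 3.55 and 4.01 in adult cells and at 12.28 and 12.11 in fibroblasts. Cthrc1, a secreted collagen-associated protein, was at 4.05 and 5.75 against 11.64 and 11.52. These 2 genes were low on both adult arrays and high on both fibroblast arrays. All 4 markers were chosen from this comparison with the arrays grouped by source name, so they do not check the labels. Cemip was also at 10.91 on neonatal cardiomyocyte replicate 2, and its level does not tell the neonatal cell types apart.

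Other markers of cardiomyocytes were unequal between the fibroblast arrays. Myh6, the alpha myosin heavy chain of adult heart, was at 14.48 on both adult arrays, and in fibroblasts it still reached 9.47 and 12.31. Tnni3, cardiac troponin I, was at 13.88 and 14.06 against 6.07 and 10.86, and its difference of 5.51 ± 1.50 log2 units (SE) missed the threshold (limma adjusted p = 0.0581). Ryr2 and Actn2 were also higher on fibroblast replicate 2 (7.67 and 9.03) than on replicate 1 (4.87 and 6.72). On the neonatal arrays numbered 1, whose titles disagree, Tnni3 was at 6.07 on the array with the fibroblast source name and at 13.58 on the one with the cardiomyocyte source name. Of the fibroblast markers, Tcf21 was at 6.26 and 7.48 in adult cells against 12.31 and 12.09, Col1a1 at 7.48 and 7.24 against 13.99 and 11.62, and Postn at 8.06 and 9.99 against 12.85 and 13.33. Pdgfra, the PDGF receptor of fibroblasts, was at 6.94 and 9.18 against 10.46 and 10.42 and missed the threshold (limma adjusted p = 0.0778). Adult replicate 2 was above replicate 1 for 3 of these 4 genes. In RNA of whole preparations, fewer cells of a type and less RNA per cell cannot be told apart. Of 7 sex-linked genes measured 2 were called higher in adult cells and 2 lower, against 10.1% and 11.0% of all genes. Xist, expressed from the inactive X chromosome of females, was at 5.89 and 6.38 in the male adult cells and at 10.81 and 11.70 in the mixed-sex fibroblasts.

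The 250 bases before the annotated start of 3 of these 4 markers are shown because these genes mark the cells compared. They are from RefSeq's promoter table (build GRCm38.p6) and are written 5′ to 3′ on the gene's strand. Ckmt2 is at chr13:91876886-91877135, minus strand, Asb15 at chr6:24527894-24528143, plus strand and Cemip at chr7:84086506-84086755, minus strand. Capitals mark matches, on either strand, to 11 motifs: the TEAD motif is CATTCC, the box named TATA is TATAAA, the ERR motif is AAGGTCA, the AP-1 motif is TGANTCA, the CRE motif is TGACGTCA, the E2F motif is TTGGCGC, the CHR motif is TTTGAA, the CCAAT box is spelled by its name, and the GC box is GGGCGG. The MEF2 and CArG motifs, which allow several letters at some positions, go by name.
Ckmt2: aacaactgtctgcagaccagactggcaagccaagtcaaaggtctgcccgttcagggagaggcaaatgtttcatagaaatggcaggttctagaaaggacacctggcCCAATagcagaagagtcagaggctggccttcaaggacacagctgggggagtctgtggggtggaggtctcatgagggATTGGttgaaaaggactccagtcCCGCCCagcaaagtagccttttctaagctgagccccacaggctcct
Asb15: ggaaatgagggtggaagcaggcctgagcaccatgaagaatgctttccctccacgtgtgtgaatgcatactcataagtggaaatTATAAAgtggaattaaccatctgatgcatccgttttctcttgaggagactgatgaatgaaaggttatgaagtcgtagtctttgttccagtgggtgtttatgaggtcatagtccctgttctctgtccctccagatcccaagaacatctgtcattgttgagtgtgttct
Cemip: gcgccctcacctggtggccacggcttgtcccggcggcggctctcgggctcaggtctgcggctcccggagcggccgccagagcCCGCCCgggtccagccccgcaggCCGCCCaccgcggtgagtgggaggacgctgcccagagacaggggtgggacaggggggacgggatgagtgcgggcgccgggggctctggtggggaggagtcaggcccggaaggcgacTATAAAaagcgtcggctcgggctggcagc
The Ckmt2 window held a pair of CCAAT matches and a GC box, with a GC content of 54.0%. Asb15 had a TATA box match that began 167 bases before the start and no other match, at 44.0% GC. Cemip had a TATA box match that began 29 bases before the start and a pair of GC boxes, at 75.2% GC. A match is a run of letters and not a tested site.

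Of 18193 genes, 1829 (10.1%) were called higher in adult cardiomyocytes and 2000 (11.0%) lower, at a limma p adjusted by the Benjamini-Hochberg method under 0.05. The difference was at least 4-fold for 785 of the higher and 811 of the lower genes, and at least 16-fold for 201 and 132. Called differences had a median size of 1.78 log2 units upward and fell by 1.74 downward, and the smallest called was 0.63. The adult arrays and the fibroblast arrays did not overlap for 12366 genes (68.0%), of which 8537 were not called. The median difference over all genes was 0.09, and centring each array on its median moved it to 0.24. With adult replicate 1 left out, limma called 0 genes (4591 had an unadjusted p under 0.05), and without adult replicate 2 it called 350. Without fibroblast replicate 1 it called 1083 genes and without fibroblast replicate 2 it called 1941. Grouping the arrays by their titles left 137 calls, 40 higher and 97 lower.

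**Figure D1:**
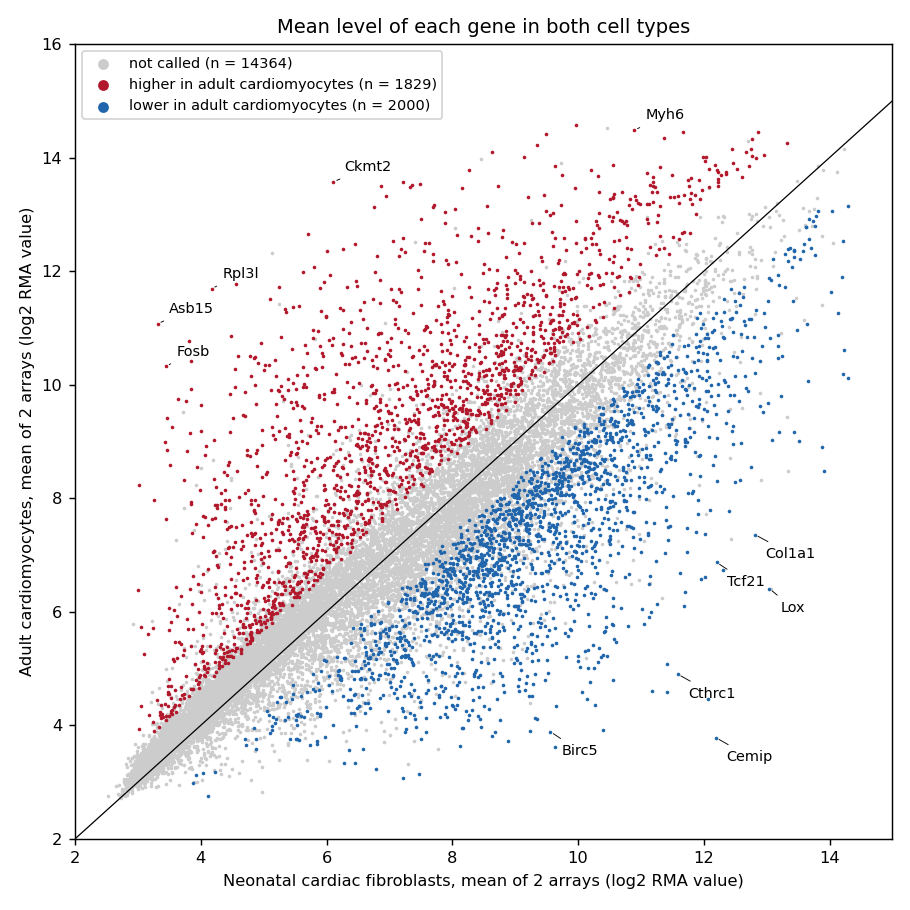
Mean log2 RMA value of each of 18193 genes in neonatal fibroblasts (x axis) and adult cardiomyocytes (y axis), each over 2 arrays, with the line of equal level. The 1829 red genes were called higher in adult cells and the 2000 blue genes lower, and the labelled genes are described in the text.

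The 15 largest called differences upward ran from 82.4-fold to 217-fold (limma adjusted p from 0.00411 to 0.0244). Asb15 led with 7.76 ± 0.38 log2 units (SE). Rpl3l, a striated muscle form of ribosomal protein L3, was at 11.56 and 11.82 in adult cells against 3.97 and 4.37. That is a difference of 7.52 ± 0.22, with a smaller error than any other of the largest 3. Ckmt2 followed with 7.46 ± 1.15, and its error reflects the gap between its fibroblast arrays. Txlnb (beta-taxilin, a muscle protein) differed by 7.22 ± 0.55 and Cmya5 (myospryn, which binds the Z-disc) by 6.95 ± 0.40. Ckm, the muscle creatine kinase, was at 13.40 and 13.59 against 5.89 and 7.83. Corin, the protease that activates atrial natriuretic peptide, was at 10.57 and 10.26 against 3.28 and 4.40. Tcap (telethonin, of the Z-disc), Cox7a1 (a muscle subunit of cytochrome oxidase), Pygm (muscle glycogen phosphorylase), Tmem182, Tecrl and Abcc9 (the sulfonylurea receptor of the cardiac ATP-sensitive potassium channel) had differences between 6.36 and 6.47. Fosb and Rgcc stood among them without being muscle genes. Fosb, an immediate early transcription factor, was at 10.64 and 10.00 against 3.52 and 3.37. Rgcc, a regulator of the cell cycle, was at 10.78 and 10.74 against 3.35 and 4.27. For all 15 genes both adult arrays were above both fibroblast arrays, which the rule required.

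The 15 largest called differences downward ran from 47.4-fold to 340-fold (limma adjusted p from 0.00411 to 0.0428). Cemip had the largest difference of all, 8.41 log2 units lower in adult cells, with an SE of 2.01. Its error came mostly from the neonatal cardiomyocyte arrays in the same fit, at 4.46 and 10.91, since both adult arrays and both fibroblast arrays lay close together. Clca3a1, a chloride channel accessory protein, was at 4.94 and 3.98 in adult cells and at 12.27 and 11.87 in fibroblasts. Lox, lysyl oxidase, which crosslinks collagen and elastin, was at 5.32 and 7.49 against 13.15 and 12.93. Vgll3, a cofactor of TEAD transcription factors, was at 3.78 and 5.42 against 10.98 and 11.37. The list also held 2 collagens, Col11a1 (3.95 and 3.89 against 10.12 and 10.68) and Col12a1 (3.82 and 4.88 against 9.74 and 10.79). It held the heparan sulfate sulfotransferase Hs6st2 (4.95 and 5.20 against 11.15 and 11.67) and the semaphorin Sema3d (4.27 and 5.33 against 11.08 and 10.03). Ccn4 and Igfbp2, secreted modulators of Wnt and insulin-like growth factor signalling, were 47.9-fold and 51.2-fold lower. Birc5 (survivin, needed for chromosome segregation) was 51.0-fold lower and Trim59 (a tripartite motif protein) 64.8-fold lower. Lgals3, galectin 3, was at 5.80 and 7.67 against 12.74 and 11.87. Scel (sciellin) was 114-fold lower by the probe set used, but only 1 of its 2 probe sets had that direction. Likewise 2 of 4 probe sets of Col12a1 pointed this way. Among the called genes named here, 14 had at least 1 probe set with the opposite direction. For 5 of these no more than 1 in 2 probe sets had the direction given, Scel, Col12a1, Actb, Anxa1 and Rps6. The other 9 were Hsp90aa1, Itga4, Itgb1, Ndn, Peg3, Sdha, Tmsb10, Top2a and Tpm1.

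**Figure D2:**
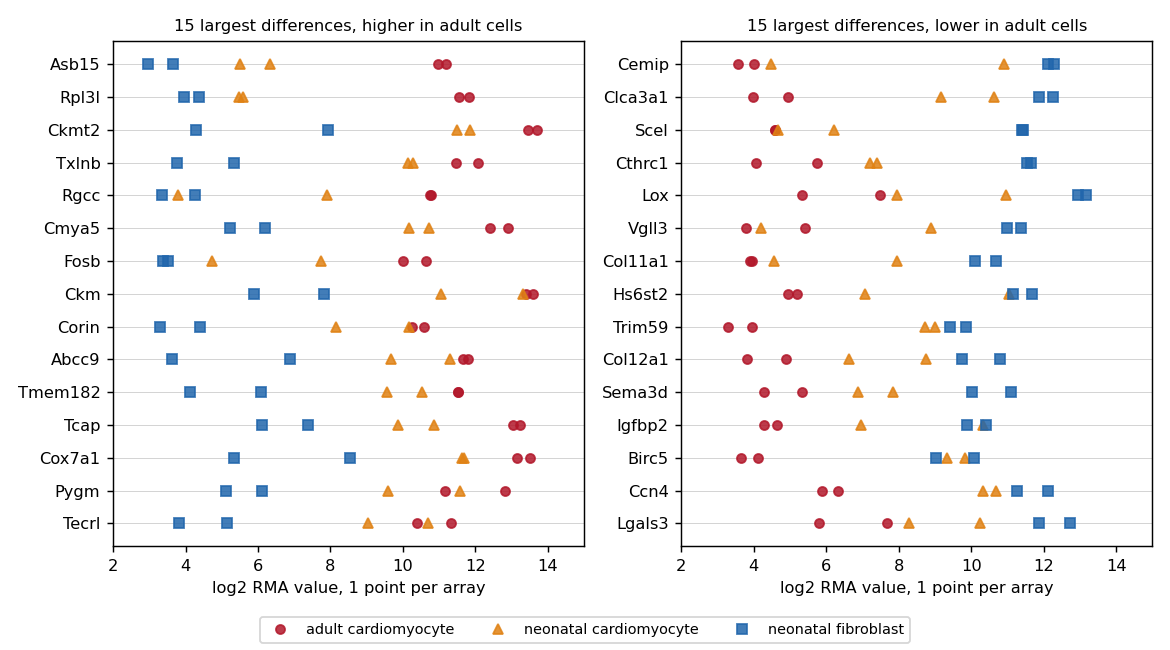
Log2 RMA values on each of the 6 arrays for the 15 genes with the largest called difference in each direction, 1 point per array. Adult cardiomyocytes (red circles) and neonatal fibroblasts (blue squares) do not overlap for any of them. Neonatal cardiomyocytes (orange triangles) lay nearer the adult mean for 11 of the 15 higher and 8 of the 15 lower genes.

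Sarcomere genes were higher in adult cardiomyocytes. The gene lists here and below were chosen with earlier results of these data known, and their counts are a description. Of 9 thick filament genes 7 were called higher, and of 23 genes of the thin filament and Z-disc 16 were, against 10.1% of all genes. None was called lower, with 0 lower in either list at an unadjusted limma p under 0.05. The median difference was 4.61 log2 units for the thick filament and 4.16 for the thin filament and Z-disc. Without fibroblast replicate 1 these medians were 2.95 and 3.12, and without fibroblast replicate 2 they were 6.20 and 5.09. Myom2, a myomesin of the M-band, was at 13.51 and 13.53 against 5.98 and 8.72. Ttn, the giant spring titin, was at 14.10 and 13.91 against 7.57 and 10.71. Mylk3, the cardiac myosin light chain kinase, differed by 4.99 ± 0.78, and Myl3, the ventricular essential light chain, by 4.92 ± 1.25 (limma adjusted p = 0.0496). Lmod2, which lengthens thin filaments, differed by 6.36 ± 0.84 and Myoz2, calsarcin 1 of the Z-disc, by 6.34 ± 0.93. Myot (myotilin) was at 10.55 and 8.93 in adult cells and at 3.61 and 3.67 in fibroblasts, with a neonatal cardiomyocyte mean of 4.10. On the fibroblast arrays the list medians were 7.49 and 9.57 for the thick filament and 7.13 and 9.15 for the thin filament and Z-disc, always higher on replicate 2. The part of this gap in the missed calls, such as that of Tnni3, was not tested. The 23 calls became 0 without adult replicate 1 (20 genes at an unadjusted limma p under 0.05) and 2 without adult replicate 2.

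In the list of the sarcoplasmic reticulum and T-tubules 9 of 16 were called higher and 1 lower, and of 18 ion channels and exchangers 12 were called higher and 0 lower (0 at an unadjusted limma p under 0.05), against 10.1% of all genes called higher and 11.0% called lower. The median differences of these lists were 4.64 and 3.58. Without fibroblast replicate 1 they were 3.08 and 3.35, and without fibroblast replicate 2 they were 5.08 and 3.88. Hrc, a calcium-binding protein of the reticulum, was at 12.08 and 12.05 against 5.69 and 5.93. Ryr2, the calcium release channel, differed by 6.12 ± 0.91, Trdn (triadin) by 5.85 ± 0.99 and Pln (phospholamban, the brake on the calcium pump) by 5.46 ± 0.83. Atp2a2, the pump itself, was at 14.38 and 14.31 against 10.52 and 12.22. Fkbp1b, which binds the release channel, was lower in adult cells (4.72 and 5.18 against 6.61 and 6.19). Among channels, Kcnj3 was at 9.63 and 9.78 against 3.21 and 4.30 and Kcnd2 at 8.70 and 8.98 against 3.34 and 3.59. The L-type calcium channel Cacna1c differed by 4.08 ± 0.64, and Fxyd1 (phospholemman, a regulator of the sodium pump) by 4.94 ± 0.84. Kcnj2, an inward rectifier, was at 4.02 and 3.25 against 3.36 and 2.98, low on all 4 arrays, and was not called.

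Of 15 genes of the intercalated disc and costamere, 9 were called higher and 1 lower, against 10.1% and 11.0% of all genes. The median difference was 2.23, and it was 1.62 without fibroblast replicate 1 and 2.49 without fibroblast replicate 2. Dsp (desmoplakin) was at 13.20 and 13.12 in adult cells against 6.42 and 8.99. Itgb1bp2 (melusin) differed by 5.22 ± 0.71, Dsc2 (desmocollin 2) by 4.70 ± 0.53 and Sgca (alpha-sarcoglycan) by 4.48 ± 0.24. Gja1, connexin 43, was at 13.13 and 13.15 against 10.96 and 11.65, a smaller difference of 1.84 ± 0.27. Cdh2 (N-cadherin), at 12.09 and 11.50 against 11.40 and 11.18, was not called (limma adjusted p = 0.219). Vcl (vinculin), which fibroblasts use in focal adhesions, was lower in adult cells (11.22 and 11.03 against 12.16 and 12.40). Over these 3 lists the 30 calls upward became 0 without adult replicate 1 (34 of 49 genes at an unadjusted limma p under 0.05 in either direction) and 8 without adult replicate 2.

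Of 16 genes of a list named for fetal heart isoforms, 5 were called higher in adult cells and 2 lower, against 10.1% of all genes called higher and 11.0% called lower. The share called lower is near that of all genes. For all 5 called higher, the neonatal cardiomyocyte mean lay nearer the adult mean than the fibroblast mean. Actc1, also in the thin filament and Z-disc list, had a neonatal cardiomyocyte mean of 14.48. Acta1, skeletal alpha actin, was at 13.05 and 11.72 against 6.64 and 7.73, Nppb (brain natriuretic peptide) at 12.91 and 12.60 against 6.90 and 9.91, and Actc1 (cardiac alpha actin) at 14.49 and 14.40 against 10.64 and 12.71. Acta2, smooth muscle alpha actin, was lower at 11.25 and 12.01 against 13.74 and 14.31, and so was the non-muscle myosin Myh10 at 8.55 and 9.08 against 11.41 and 11.70. Tnni1, the fetal troponin I, was at 5.42 and 5.25 in adult cells and at 6.80 and 9.53 in fibroblasts (limma adjusted p = 0.0835), with a neonatal cardiomyocyte mean of 13.50. Other genes of this list were not called either. Myh7, the slow or beta myosin heavy chain that mouse ventricle uses mainly before birth, was at 9.11 and 8.76 against 4.51 and 6.27 (limma adjusted p = 0.172). Its arrays did not overlap, but in the same fit the neonatal cardiomyocytes spread from 9.70 to 14.41. Myl4, the atrial and fetal myosin light chain, was at 8.02 and 12.89 against 8.07 and 11.09 (limma adjusted p = 0.746). In both groups its replicates differed more than the group means did. Of 21 cardiac transcription factors 7 were called higher and 1 lower, with a median difference of 0.69. Smyd1, a muscle methyltransferase, was at 11.03 and 10.85 against 5.03 and 6.69. Nkx2-5 was at 9.66 and 8.60 against 5.85 and 6.24, Irx4 (a ventricular factor) differed by 3.58 ± 0.66 and Prox1 by 3.52 ± 0.53. Tbx20 was lower in adult cells, at 10.29 and 10.13 against 11.53 and 11.92. Gata4, an early cardiac factor, was at 9.21 and 7.23 against 8.65 and 6.95, with overlapping groups (limma adjusted p = 0.796). Of the 12 calls upward in both lists, 0 were left without adult replicate 1 (17 of 37 genes at an unadjusted limma p under 0.05 in either direction), 0 without adult replicate 2 (17 as well) and 6 without fibroblast replicate 1.

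Mitochondrial fuel genes were higher in adult cardiomyocytes, and 2 of their lists had the highest shares called of all 44 lists (95.8% for the TCA cycle and 95.1% for oxidative phosphorylation). Called higher were 24 of 28 genes of fatty acid uptake and oxidation, 39 of 41 of oxidative phosphorylation, and 23 of 24 of the TCA cycle and pyruvate oxidation, each set against 10.1% of all genes. No member was called lower, and 1 (of oxidative phosphorylation) was lower at an unadjusted limma p under 0.05. Median differences were 3.04, 1.95 and 2.46 log2 units. Cd36, the fatty acid transporter, was at 12.66 and 12.59 against 7.45 and 9.14, and Fabp3, the heart fatty acid binding protein, at 14.14 and 14.29 against 8.17 and 10.53. Plin5, which tethers lipid droplets to mitochondria, was at 10.88 and 10.59 against 4.94 and 4.97. Ndufs1 of complex I differed by 2.91 ± 0.40, while the muscle subunits Cox7a1, Cox8b and Cox6a2 of cytochrome oxidase differed by 6.38 ± 1.02, 6.16 ± 0.86 and 5.30 ± 0.84. Cs, citrate synthase, was at 13.66 and 13.73 against 11.28 and 11.69, and Idh3a differed by 2.39 ± 0.27. Pdk4, the kinase that turns pyruvate away from oxidation, was at 12.54 and 12.41 against 5.95 and 6.94. The related kinase Pdk1 differed by 3.78 ± 0.79, the mitochondrial isocitrate dehydrogenase Idh2 by 3.58 ± 0.71 and the aspartate aminotransferase Got1 by 3.47 ± 0.36.

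Regulators of these genes were higher as well, 10 of 19 called higher (against 10.1% of all genes) and 0 lower (0 at an unadjusted limma p under 0.05). Ppargc1a, the coactivator of mitochondrial biogenesis, was at 11.34 and 11.21 against 3.93 and 6.79. Perm1, a muscle regulator downstream of it, was at 10.52 and 10.49 against 4.35 and 5.22. The receptors Esrrg and Ppara differed by 4.81 ± 0.49 and 4.66 ± 0.28. Neonatal cardiomyocytes lay nearer adult cells for all 39 called oxidative phosphorylation genes and all 23 called genes of the TCA cycle list, but for 17 of 24 in fatty acid oxidation and 6 of 10 regulators. Over these 4 lists 96 genes were called higher, which became 0 without adult replicate 1 (96 of 112 at an unadjusted limma p under 0.05), 6 without adult replicate 2 and 55 without fibroblast replicate 1.

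In glucose metabolism 12 of 25 genes were called higher and 1 lower, against 10.1% and 11.0% of all genes. Pygm was at 12.82 and 11.17 against 5.13 and 6.11 and Pfkm, the muscle phosphofructokinase, at 13.05 and 12.64 against 8.09 and 7.67. Eno3 (muscle enolase) differed by 4.76 ± 0.76 and Slc2a4, the insulin-regulated transporter GLUT4, by 4.04 ± 0.25. Slc2a1, the widely used transporter GLUT1, was at 9.07 and 8.90 against 10.01 and 9.60 and was not called (limma adjusted p = 0.102). Ldha, a subunit of lactate dehydrogenase, was at 12.19 and 12.20 against 11.96 and 11.83 and was not called (limma adjusted p = 0.438). Pgam1 was lower in adult cells, at 8.82 and 8.98 against 11.11 and 10.64. Of 12 genes of the creatine kinase, myoglobin and ketone list, 9 were called higher and 1, Ckb, lower. The 9 include Ckmt2, a marker chosen from this comparison. Mb, myoglobin, was at 14.60 and 14.56 against 8.34 and 11.58, near the top of the array's range in adult cells. Bdh1, which oxidises the ketone body hydroxybutyrate, was at 10.16 and 9.22 against 5.42 and 5.45, with a neonatal cardiomyocyte mean of 5.90. The 21 calls upward in these lists became 0 without adult replicate 1 (23 of 37 genes at an unadjusted limma p under 0.05 in either direction) and 2 without adult replicate 2.

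Muscle ubiquitin ligase, Asb and kelch genes were called higher in 15 of 16 cases, against 10.1% of all genes, and lower in 0 (0 at an unadjusted limma p under 0.05), with a median difference of 4.42. The 15 include Asb15, a marker chosen from this comparison. The median difference was 3.94 without fibroblast replicate 1 and 4.71 without fibroblast replicate 2. Besides Asb15, Asb14 was at 9.98 and 9.87 against 3.89 and 3.81, and Asb11 at 11.63 and 11.03 against 4.82 and 5.86. Trim54, a ligase of the sarcomere (MuRF3), differed by 5.82 ± 0.61. Neonatal cardiomyocytes were near fibroblasts for Asb14, with a mean of 4.90, and between the groups for Asb11, with 9.14. These 15 calls became 0 without adult replicate 1 (15 genes at an unadjusted limma p under 0.05) and 6 without adult replicate 2.

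Cytosolic ribosomal protein genes were lower in adult cardiomyocytes. Of 22 measured, 16 were called lower, against 11.0% of all genes, with a median that fell by 0.97 log2 units. Rps19 was at 11.50 and 11.94 against 13.05 and 13.55, Rps20 at 12.31 and 12.52 against 13.66 and 13.74, and Rps6, by 1 of its 2 probe sets, at 8.27 and 8.50 against 9.62 and 9.70. Rpl3l, the muscle form, was the 1 member called higher. Among 13 genes often used as references, 4 were called lower and 1 higher (10.1% of all genes were called higher). Actb was at 12.97 and 13.34 against 14.30 and 14.29 by 1 of its 2 probe sets, Eef1a1 at 12.04 and 13.01 against 14.28 and 14.14, and Gusb, a lysosomal enzyme, at 7.40 and 8.16 against 11.32 and 9.99. Sdha, a subunit of complex II, was higher, at 13.33 and 13.30 against 10.80 and 11.01. Hprt missed the threshold, at 10.06 and 10.37 against 11.09 and 10.75. The 20 calls downward in these lists became 0 without adult replicate 1 (23 of 35 genes at an unadjusted limma p under 0.05 in either direction), 1 without adult replicate 2, 0 without fibroblast replicate 1 (23 as well) and 1 without fibroblast replicate 2.

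Related genes were compared in pairs, with 1 member listed as used mainly by muscle and 1 as more widely used. Of 29 such pairs, 25 had both members measured. The listing was an assignment and was not tested here. Atp2a2, a listed muscle member, was also at 10.52 and 12.22 in fibroblasts. The listed muscle member was called higher in adult cells in 21 pairs and lower in 0, against 10.1% and 11.0% of all genes. The 21 include Ckmt2, a marker chosen from this comparison. The relative listed as more widely used was called lower in 9 pairs and higher in 2, Cox7a2 (1.05) and Pygb (2.83), set against the same shares. In 8 pairs the listed muscle gene was called higher and its relative lower. They were the creatine kinases Ckm and Ckb, the phosphoglycerate mutases Pgam2 and Pgam1, the acetyl-CoA carboxylases Acacb and Acaca, the myosins Myh6 and Myh9, and the alpha-actinins Actn2 and Actn1. The others were the actins Actc1 and Actb (1 of its 2 probe sets), the tropomyosins Tpm1 and Tpm4, and the filamins Flnc and Flna. Ckb was at 8.65 and 9.58 in adult cells against 11.40 and 11.50, while Ckm differed by 6.63 ± 0.93 in the opposite direction. Actn1 was at 8.51 and 9.43 against 12.59 and 12.60, and Actn2 at 13.26 and 12.84 against 6.72 and 9.03. Timp4, an inhibitor of matrix proteases expressed in heart, was at 9.18 and 9.66 against 3.40 and 3.53, while Timp1 was at 5.97 and 8.52 against 11.37 and 10.73 and missed the threshold (limma adjusted p = 0.0875). Near-identical relatives can share probes, and how far these probe sets cross-hybridise was not tested.

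**Figure D3:**
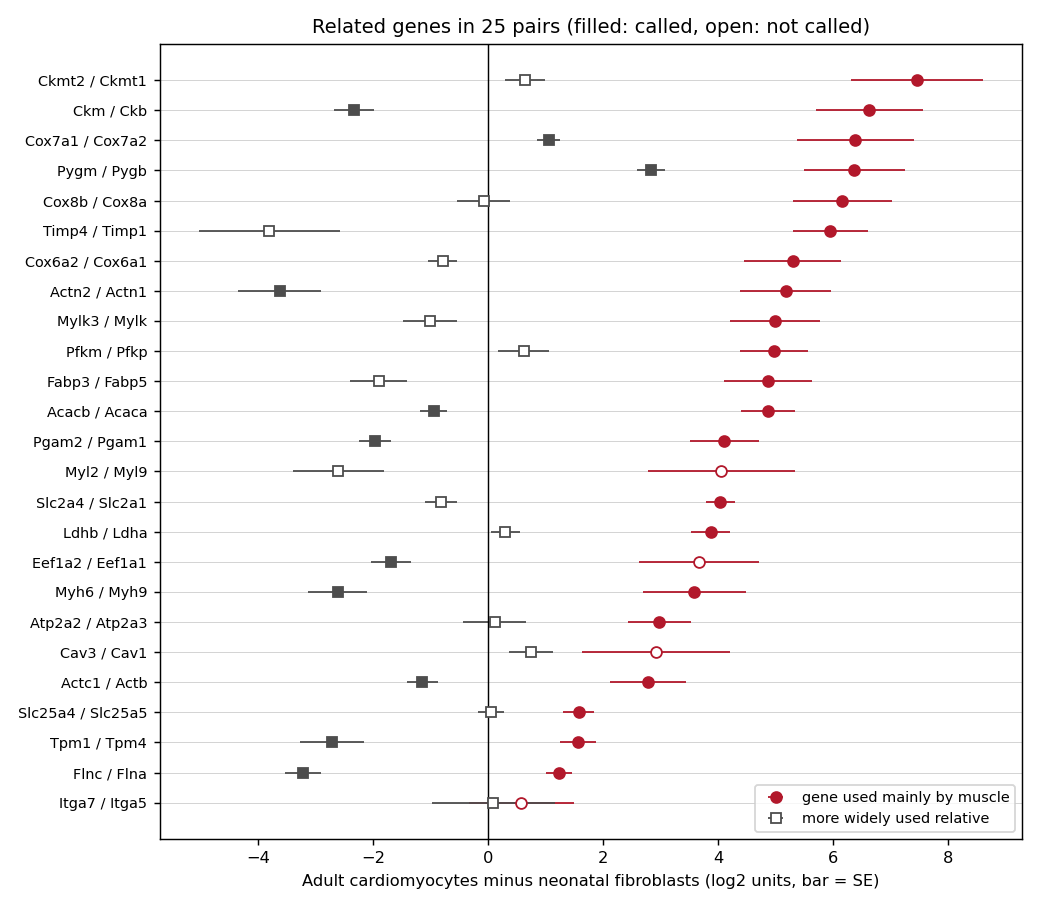
Difference between adult cardiomyocytes and neonatal fibroblasts (log2 units) for 25 pairs of related genes, with the limma SE as bars. The member listed as muscle (red circles) was called higher in 21 pairs, and the member listed as more widely used (grey squares) lower in 9 and higher in 2.

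RefSeq promoter windows of 300 bases, 250 before and 50 after the start, were held for 14368 of the genes compared. Where a gene had several windows, the first listed was used. A MEF2 consensus match was found in 71 of them (0.494%). It was found in 23 of 1469 genes called higher (1.57%) and in 7 of 1600 called lower (0.438%). MEF2 factors are transcription factors of muscle. The GC box was found in 54.1% of all windows, 57.3% of those of higher genes and 68.9% of those of lower genes, and mean GC content was 58.6%, 60.2% and 61.2%. The E2F letters were found in 3.80% of all, 3.61% of higher and 5.38% of lower genes, and the AP-1 letters in 6.29%, 5.92% and 4.69%. These shares are a description, with no test. Myoz2, Ttn, Esrrg and Atf3, all called higher, had a MEF2 match in the 250 bases before their starts. These bases are shown with the motifs above in capitals. They are examples, and MEF2 matches of the other named genes are not listed here. Myoz2 is at chr3:123034988-123035237, minus strand, Ttn at chr2:76982548-76982797, minus strand, Esrrg at chr1:187608756-187609005, plus strand and Atf3 at chr1:191183334-191183583, minus strand.
Myoz2: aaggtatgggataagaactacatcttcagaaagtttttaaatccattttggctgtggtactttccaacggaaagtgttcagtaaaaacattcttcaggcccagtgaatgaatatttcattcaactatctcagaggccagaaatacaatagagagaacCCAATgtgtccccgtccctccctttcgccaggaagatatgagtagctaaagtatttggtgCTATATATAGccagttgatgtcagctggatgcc
Ttn: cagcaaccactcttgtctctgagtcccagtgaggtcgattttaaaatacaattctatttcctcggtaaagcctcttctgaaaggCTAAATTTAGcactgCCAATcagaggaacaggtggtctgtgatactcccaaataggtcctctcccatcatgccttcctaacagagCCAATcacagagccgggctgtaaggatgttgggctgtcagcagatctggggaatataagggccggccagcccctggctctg
Esrrg: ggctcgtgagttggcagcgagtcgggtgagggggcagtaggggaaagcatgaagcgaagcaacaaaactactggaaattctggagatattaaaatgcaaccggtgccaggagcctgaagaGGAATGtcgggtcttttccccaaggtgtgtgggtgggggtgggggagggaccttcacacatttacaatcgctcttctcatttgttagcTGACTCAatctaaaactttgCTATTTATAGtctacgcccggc
Atf3: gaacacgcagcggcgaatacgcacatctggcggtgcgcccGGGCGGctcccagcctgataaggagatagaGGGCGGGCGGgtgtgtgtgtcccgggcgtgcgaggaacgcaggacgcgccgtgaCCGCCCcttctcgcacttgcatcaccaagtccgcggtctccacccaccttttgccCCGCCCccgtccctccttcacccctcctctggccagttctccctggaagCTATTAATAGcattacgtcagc
The MEF2 match was CTATATATAG in Myoz2, beginning 33 bases before the start, and CTAAATTTAG in Ttn, beginning 166 bases before it. It was CTATTTATAG in Esrrg and CTATTAATAG in Atf3, both beginning 22 bases before the start. In Esrrg it overlapped a TATA box match on the other strand. Atf3, an early stress gene, also held 5 GC box matches at a GC content of 65.2%, and Myoz2 held none at 40.8%.

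Collagen genes were higher in neonatal fibroblasts. Of 21 collagen chains 12 were called lower in adult cells, against 11.0% of all genes, and 0 higher (0 at an unadjusted limma p under 0.05), with a median that fell by 2.59 log2 units. Col1a1 differed by −5.45 ± 0.95, Col5a2 by −5.43 ± 0.89 and Col3a1 by −3.63 ± 0.69. Col3a1 was at 9.62 and 11.59 in adult cells against 14.41 and 14.06, so it was not near the bottom of the range in adult cells. Of 18 genes that process and crosslink collagen, 10 were called lower and 0 higher (0 at an unadjusted limma p under 0.05). Loxl1 was at 7.04 and 7.70 against 12.19 and 11.83, and Plod2, a lysyl hydroxylase, at 8.94 and 8.96 against 12.45 and 12.47. Serpinh1, the collagen chaperone, differed by −2.31 ± 0.42 and Pcolce, which speeds up procollagen cleavage, by −2.72 ± 0.65. The 22 calls in both lists became 0 without adult replicate 1 (21 of 39 genes at an unadjusted limma p under 0.05), 4 without adult replicate 2, 7 without fibroblast replicate 1 and 11 without fibroblast replicate 2.

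Other matrix genes were also lower in adult cells. Of 32 matricellular and structural matrix genes 19 were called lower, against 11.0% of all genes, and 0 higher (1 at an unadjusted limma p under 0.05). The 19 include Cthrc1, a marker chosen from this comparison. Fn1, fibronectin, was at 8.11 and 9.71 against 14.00 and 13.75, and Postn, periostin, differed by −4.06 ± 0.68. Ccn5, a matricellular protein of the CCN family, was at 5.92 and 6.77 against 11.63 and 11.79, and Ccn4 at 5.89 and 6.32 against 12.11 and 11.26. Of 27 proteoglycan and hyaluronan genes 9 were called lower and 1 higher. The 9 include Cemip, another marker chosen from this comparison. Fmod (fibromodulin) was at 5.98 and 6.77 against 10.72 and 10.16 and Prelp at 6.21 and 7.22 against 11.23 and 9.86. Gpc1, a glypican, was higher in adult cells, at 10.89 and 10.92 against 6.19 and 7.49. Dcn (decorin) and Lum (lumican), abundant products of fibroblasts, were not called. Dcn was at 10.69 and 12.49 against 13.09 and 12.15, and Lum at 8.86 and 10.85 against 11.96 and 10.56, with overlapping groups for both.

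Of 24 matrix proteases and inhibitors 12 were called lower and 1 (Timp4) higher, against 11.0% and 10.1% of all genes. Mmp14, a membrane-bound collagenase, was at 6.33 and 7.04 against 12.03 and 11.23, and Mmp2, the gelatinase it activates, at 6.76 and 8.47 against 11.63 and 11.16. Adamts12 and Adamts5, secreted proteases, differed by −5.16 ± 1.05 and −4.47 ± 0.82. Over these 3 matrix lists the 40 calls downward became 0 without adult replicate 1 (47 of 83 genes at an unadjusted limma p under 0.05 in either direction), 11 without adult replicate 2, 8 without fibroblast replicate 1 and 12 without fibroblast replicate 2.

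Among 31 markers of fibroblast identity 11 were called lower in adult cells and 1 higher, against 11.0% and 10.1% of all genes. Tcf21, a transcription factor of cardiac fibroblasts, differed by −5.33 ± 0.44. Tbx18, of the epicardial lineage, was at 5.26 and 6.17 against 9.54 and 9.74, Thy1 at 5.88 and 6.69 against 9.81 and 10.37, and Twist1 at 4.36 and 5.02 against 7.95 and 7.69. Pi16, a marker of a fibroblast subset, was higher in adult cells, at 7.24 and 8.21 against 4.69 and 5.02. The median of this list was 6.62 on adult replicate 1 and 8.21 on adult replicate 2, against 9.11 and 9.73 in fibroblasts. The part of fibroblast transcripts in the difference between the adult arrays was not tested. Of 30 genes of TGF beta and BMP signalling 10 were called lower and 1 higher, set against the same shares. The ligands Tgfb2 and Tgfb3 were at 6.36 and 7.23 against 9.56 and 10.41, and at 6.91 and 7.48 against 10.57 and 9.98. The receptor Tgfbr1 differed by −1.46 ± 0.28, the inhibitor Smad6 by −2.77 ± 0.67 and the secreted Fstl1 by −4.51 ± 0.77. The coreceptor Tgfbr3 was higher in adult cells, at 10.38 and 10.79 against 8.73 and 8.81. The 21 calls downward in both lists became 0 without adult replicate 1 (26 of 61 genes at an unadjusted limma p under 0.05 in either direction), 4 without either adult replicate 2 or fibroblast replicate 1, and 5 without fibroblast replicate 2.

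Genes of the actin cytoskeleton and the myofibroblast were called lower in 18 of 27 cases and higher in 1, against 11.0% and 10.1% of all genes, with a median that fell by 2.62. Tmsb10, which binds monomeric actin, was at 9.22 and 11.14 against 14.15 and 14.28. Anxa1, an annexin, was at 8.37 and 9.97 against 13.39 and 13.48, by 1 of its 2 probe sets. Tagln (transgelin) was at 8.54 and 10.32 against 12.99 and 13.67 and missed the threshold (limma adjusted p = 0.0654). Palld (palladin), which binds alpha-actinin, was higher in adult cells by 0.81 ± 0.19. Of 22 integrins and adhesion receptors 9 were called lower and 2 higher. Cdh11, a cadherin of mesenchymal cells, was at 6.62 and 6.59 against 12.63 and 11.41. Alcam, Itgb8 and Itga4 differed by −4.56 ± 0.61, −4.30 ± 0.58 and −4.17 ± 0.82, while the shared subunit Itgb1 differed by −1.50 ± 0.29. Cdh13 (T-cadherin, an adiponectin receptor) was higher, at 10.25 and 10.48 against 7.62 and 7.35. The 27 calls downward became 0 without adult replicate 1 (29 of 49 genes at an unadjusted limma p under 0.05 in either direction), 5 without adult replicate 2, 7 without fibroblast replicate 1 and 8 without fibroblast replicate 2.

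Of 37 growth factors and receptors 4 were called higher and 8 lower, against 10.1% of all genes called higher and 11.0% called lower. The share called higher is near that of all genes. Fgf1 was at 10.87 and 10.49 in adult cells against 5.46 and 6.34, and Vegfb at 11.34 and 11.60 against 7.94 and 7.76. In the other direction, the Wnt inhibitors Frzb and Sfrp1 were at 4.84 and 6.09 against 10.73 and 10.46, and at 5.03 and 7.10 against 10.66 and 10.70. Igf1 was at 6.82 and 8.48 against 10.92 and 9.89 and its receptor Igf1r at 7.98 and 8.17 against 10.16 and 10.22. The 12 calls became 0 without adult replicate 1 (13 genes at an unadjusted limma p under 0.05), 4 without adult replicate 2 and 4 without fibroblast replicate 1.

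Genes of cell division were lower in adult cardiomyocytes. Of 27 DNA replication genes 22 were called lower, and of 36 genes of mitosis and cytokinesis 30 were, against 11.0% of all genes. None was called higher (0 at an unadjusted limma p under 0.05). Median differences fell by 2.42 and 3.63 log2 units. Without fibroblast replicate 1 these medians were −2.88 and −4.02, and without fibroblast replicate 2 they were −2.25 and −3.31. Rrm2, the ribonucleotide reductase subunit of dividing cells, was at 4.62 and 6.09 against 9.99 and 10.68, and Top2a, topoisomerase II, at 5.40 and 5.93 against 10.12 and 10.72. Mcm5 and Mcm6 of the replicative helicase differed by −4.18 ± 0.27 and −3.42 ± 0.37. Birc5 was at 3.65 and 4.12 against 9.03 and 10.08, Bub1, a spindle checkpoint kinase, at 3.65 and 4.14 against 8.89 and 9.56, and Cdk1, the mitotic kinase, at 4.56 and 5.44 against 9.50 and 10.80. Pcna, the sliding clamp, differed by −1.50 ± 0.30.

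Neonatal cardiomyocytes were on the side of the fibroblasts for 21 of the 22 called replication genes and for all 30 of the called mitosis genes. Their means were 9.58 for Birc5, 10.12 for Cdk1 and 10.40 for Top2a. In the list of D and E cyclins and inhibitors 5 of 22 were called lower and 1 higher, against 11.0% and 10.1% of all genes. Cdk6 was at 6.83 and 7.49 against 11.05 and 10.34, Ccne2 (cyclin E2) differed by −2.37 ± 0.36 and Ccnd2 (cyclin D2) by −2.03 ± 0.52 (limma adjusted p = 0.0499). Btg2, which restrains division and is also an immediate early gene, was higher in adult cells, at 12.43 and 12.74 against 10.32 and 9.24. Over these 3 lists the 57 calls downward became 0 without adult replicate 1 (62 of 85 genes at an unadjusted limma p under 0.05) and 12 without adult replicate 2. With the arrays grouped by their titles 33 were called, where the titles left 137 calls over all genes.

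Of 18 imprinted and fetal growth genes 6 were called lower in adult cells, against 11.0% of all genes, and 0 higher (0 at an unadjusted limma p under 0.05). The long non-coding RNA Meg3 was at 7.11 and 8.46 against 11.76 and 12.42. Ndn (necdin), Plagl1 (a zinc finger factor of an imprinted network) and Peg3 differed by −3.76 ± 0.68, −3.26 ± 0.25 and −2.86 ± 0.39. Plagl1 had a neonatal cardiomyocyte mean of 13.41, above the fibroblast arrays at 12.56 and 12.34. Mest, at 6.50 and 7.22 against 8.73 and 9.76, was not called (limma adjusted p = 0.0584). Igf2, a fetal growth factor, was at 8.28 and 8.70 against 7.35 and 10.75, with overlapping groups (limma adjusted p = 0.793). The 6 calls became 0 without adult replicate 1 (6 genes at an unadjusted limma p under 0.05), 4 without adult replicate 2, 2 without fibroblast replicate 1 and 3 without fibroblast replicate 2.

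**Figure D4:**
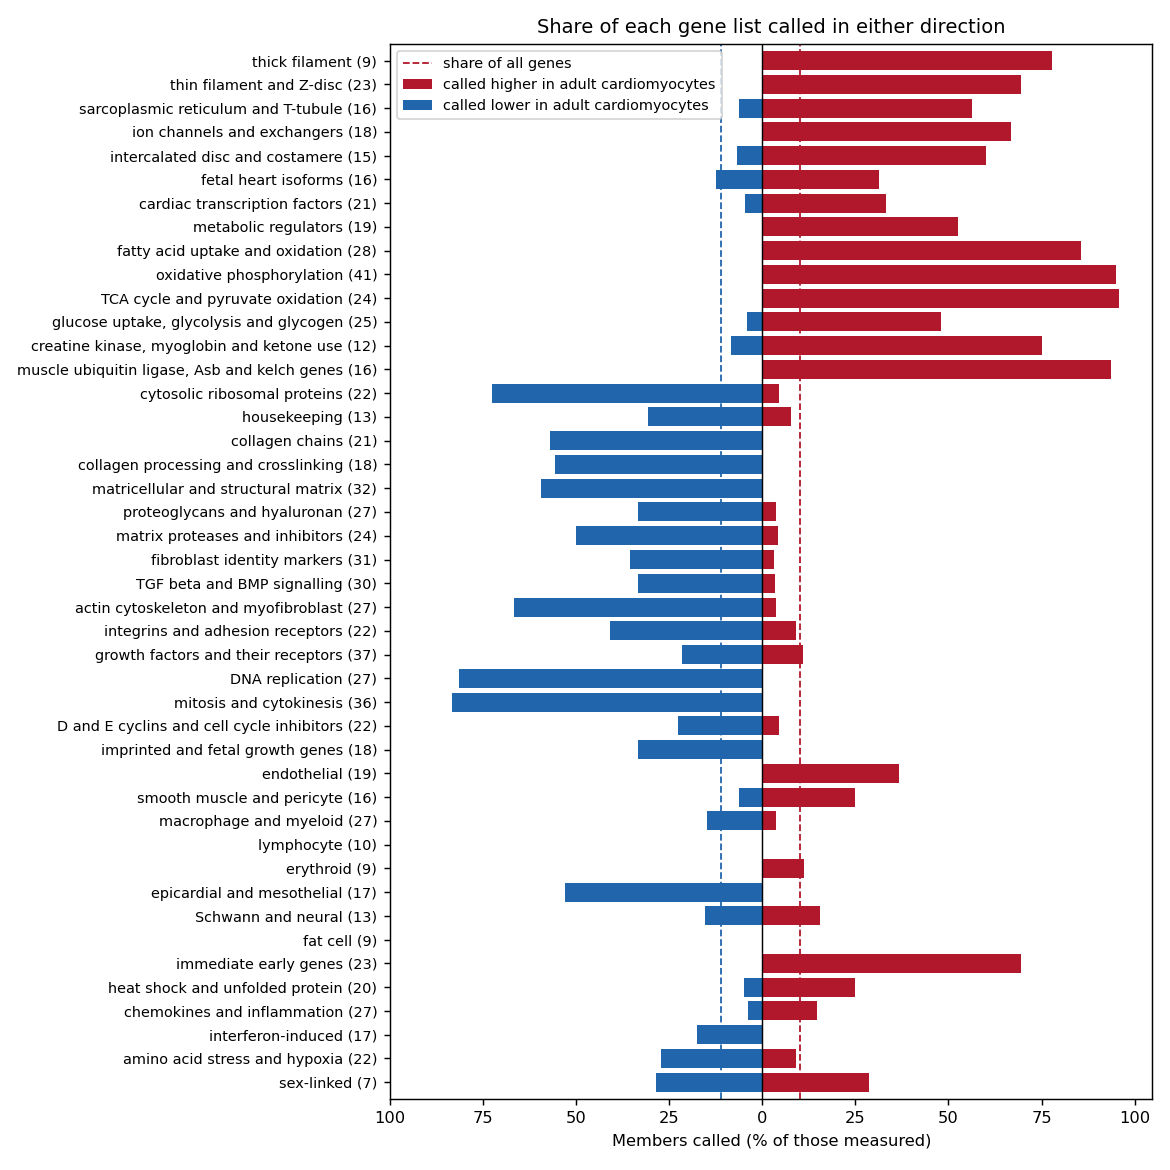
Share of the measured members of each of 44 gene lists called higher (red, to the right) or lower (blue, to the left) in adult cardiomyocytes, with the number measured in parentheses. Dashed lines mark the share of all genes called higher (10.1%) and lower (11.0%).

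Lists of markers of other cells of the heart were also measured. Of 19 endothelial markers 7 were called higher in adult cells, against 10.1% of all genes, and 0 lower (0 at an unadjusted limma p under 0.05). Pecam1 was at 8.19 and 8.38 against 5.57 and 5.69, Kdr, the VEGF receptor, at 9.39 and 10.52 against 6.26 and 6.60, and Aqp1 at 11.19 and 11.84 against 6.13 and 7.34. Adult cells had list medians of 8.35 and 9.52, and fibroblasts had 6.13 and 7.12. Of 16 markers of smooth muscle and pericytes 4 were called higher and 1 lower (11.0% of all genes were called lower), and 2 of the higher ones, Abcc9 and Des, are also expressed by cardiomyocytes. Myh11, the smooth muscle myosin, was at 7.76 and 9.37 against 5.41 and 5.86. Rgs5, a pericyte marker, was at 11.78 and 12.86 against 3.32 and 6.95, and its difference of 7.19 ± 1.84 missed the threshold (limma adjusted p = 0.0504). The 11 calls upward in both lists became 0 without adult replicate 1 (16 of 35 genes at an unadjusted limma p under 0.05 in either direction), 1 without adult replicate 2, 3 without fibroblast replicate 1 and 7 without fibroblast replicate 2.

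Macrophage transcripts were unequal between the fibroblast arrays. The median of 27 macrophage and myeloid markers was 11.13 and 8.40 in fibroblasts against 5.95 and 7.01 in adult cells. Of these, 4 were called lower in adult cells and 1 higher, against 11.0% and 10.1% of all genes, so the count called lower is near the share of all genes. Ms4a7 was at 5.11 and 6.37 against 11.30 and 10.28 and Mpeg1 at 5.97 and 7.01 against 12.29 and 9.95. C1qa, a complement subunit made by macrophages, was at 7.15 and 8.78 against 12.34 and 9.93 and was not called (limma adjusted p = 0.0966). Cd163, a receptor of resident macrophages, was higher in adult cells, at 5.54 and 5.87 against 3.17 and 3.30. Epicardial and mesothelial markers were called lower in 9 of 17 cases and higher in 0 (0 at an unadjusted limma p under 0.05), with medians of 10.14 and 8.40 in fibroblasts and 5.48 and 5.74 in adult cells. Lrrn4 was at 5.56 and 4.68 against 12.01 and 8.62 and Bnc1 at 4.44 and 5.16 against 10.35 and 8.60.

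Both lists were higher on fibroblast replicate 1 than on replicate 2, while the median of the collagen chains was 10.50 and 10.79 on these arrays. The part of macrophage transcripts in the differences of inflammatory genes was not tested. Of 10 lymphocyte markers and 9 fat cell markers, limma called 0 (3 and 2 at an unadjusted p under 0.05). Fabp4, which endothelial cells also express, was at 12.29 and 12.75 against 6.79 and 8.02. Of 9 erythroid genes 1, the carbonic anhydrase Car2, was called higher. Of 13 Schwann and neural genes 2 were called higher and 2 lower. The counts of these lists are near the shares of all genes (10.1% higher and 11.0% lower). Tubb3, a neuronal tubulin also found in dividing cells, was called lower, at 4.90 and 4.95 against 10.05 and 8.99. Of the 15 calls downward among these 6 lists, 0 were left without adult replicate 1 (20 of 85 genes at an unadjusted limma p under 0.05 in either direction), 5 without adult replicate 2, 7 without fibroblast replicate 1 and 25 without fibroblast replicate 2.

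Immediate early genes, which cells switch on within minutes of a stimulus, were higher in adult cardiomyocytes. Of 23 measured 16 were called higher, against 10.1% of all genes, and 0 lower (0 at an unadjusted limma p under 0.05), with a median of 2.80. Fos was at 13.69 and 13.85 against 8.41 and 8.11, Atf3 at 12.53 and 12.64 against 7.05 and 7.38, and Nr4a1 at 12.24 and 12.10 against 7.20 and 8.18. Egr1 was at 12.93 and 13.87 against 10.58 and 10.81. Neonatal cardiomyocytes, isolated like the fibroblasts, lay nearer the fibroblasts for 14 of the 16. The part of the isolation method in these values was not tested, since it differs with the groups. Of 20 heat shock and unfolded protein genes 5 were called higher and 1 lower (11.0% of all genes were called lower). Hspa1a, the inducible chaperone, was at 11.74 and 11.72 against 6.19 and 6.76, and Dnajb1 at 12.00 and 11.90 against 9.80 and 9.73. Hsp90aa1 was lower by 0.96 log2 units, at 11.69 and 11.53 against 12.63 and 12.49. The 21 calls upward in both lists became 0 without adult replicate 1 (28 of 43 genes at an unadjusted limma p under 0.05 in either direction), 3 without adult replicate 2, 7 without fibroblast replicate 1 and 11 without fibroblast replicate 2.

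Among 27 chemokine and inflammation genes 4 were called higher in adult cells and 1 lower, against 10.1% and 11.0% of all genes. The count called higher is near the share of all genes, and the median difference of the list was 0.10. The chemokines Cxcl1 and Cxcl2 were at 10.06 and 11.22 against 6.90 and 6.78, and at 9.28 and 10.40 against 5.29 and 3.62. Socs3, a feedback inhibitor of cytokine signalling, was at 12.78 and 12.66 against 9.41 and 8.19, and the cytokine Il1b at 7.03 and 8.11 against 5.18 and 4.76. Of 17 interferon-induced genes 3 were called lower and 0 higher (1 at an unadjusted limma p under 0.05). In the list of amino acid stress and hypoxia 6 of 22 were called lower and 2 higher. Asns, asparagine synthetase, was at 5.23 and 6.60 against 10.95 and 11.30, and Psat1, of serine synthesis, at 5.02 and 5.62 against 8.82 and 9.83. Adm, adrenomedullin, was at 7.23 and 7.73 against 11.47 and 12.01. Bnip3 and Egln3, both induced by low oxygen, were higher by 2.95 ± 0.68 and 1.90 ± 0.41. Over these 3 lists the 6 calls upward and 10 downward became 0 without adult replicate 1 (25 of 66 genes at an unadjusted limma p under 0.05), 0 without adult replicate 2 (21 genes), 0 upward and 1 downward without fibroblast replicate 1, and 0 upward and 5 downward without fibroblast replicate 2.

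Neonatal cardiomyocytes share age and isolation with the fibroblasts and the cell type with the adult cells. Of the 1829 genes called higher in adult cells, their mean lay nearer the adult mean for 961 (52.5%) and nearer the fibroblast mean for 868. Of the 2000 genes called lower, it lay nearer the adult mean for 665 (33.2%) and nearer the fibroblast mean for 1335. These positions use the same adult and fibroblast arrays as the calls and are a description. The lists differed in this respect. All 7 called thick filament genes and 15 of the 16 called thin filament and Z-disc genes had neonatal cardiomyocyte means nearer the adult cells. The cytosolic ribosomal proteins called lower were nearer the fibroblasts in all 16 cases, and the actin cytoskeleton genes called lower in 14 of 18. Collagen chains were evenly split, 6 nearer each group, and collagen processing genes were nearer the adult cells in 8 of 10. Rpl3l, with neonatal cardiomyocyte arrays at 5.48 and 5.57, and Asb15, at 6.33 and 5.50, were nearer the fibroblasts. Ckmt2, at 11.84 and 11.49, was nearer the adult cells. The neonatal cardiomyocyte arrays behind these means were unequal. Replicate 2 correlated at 0.958 with fibroblast replicate 2 and at 0.957 with its own replicate 1. The median of the actin cytoskeleton list was 10.62 on neonatal cardiomyocyte replicate 1 and 12.52 on replicate 2. That of the collagen chains was 9.21 and 8.76. How far the positions rest on 1 of these arrays was not tested.

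**Figure D5:**
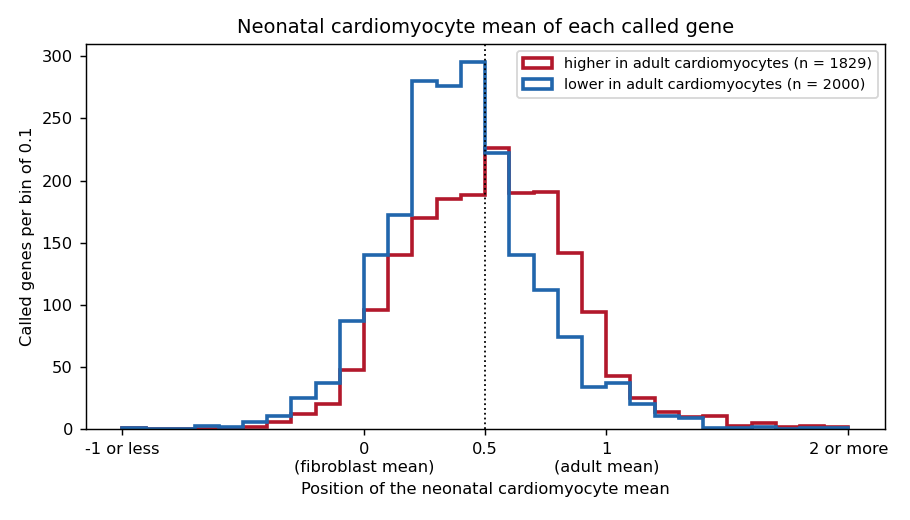
Position of the neonatal cardiomyocyte mean on a scale where 0 is the fibroblast mean and 1 the adult cardiomyocyte mean, for the 1829 genes called higher (red) and the 2000 called lower (blue) in adult cells. The mean lay beyond 0.5, nearer the adult cells, for 52.5% of the higher and 33.2% of the lower genes.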

How the data were processed

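Total RNA was measured on 6 one-colour Affymetrix arrays, 2 per group. The authors deposited log2 expression values per probe set, made with RMA per the submitters' processing notes. The method is a background correction, a quantile normalization and a summary of each probe set's probes, and gives no detection call; its version and joint processing are not given in the sources used here. Of 45101 probe sets, 34945 were annotated to 1 gene, 932 to several and 9160 to none here, and 64 were controls; 0 symbols needed updating. For the 9010 genes with several probe sets, the one with the highest mean over 6 arrays was used, giving 18193 genes.

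Groups follow the source name. A model of 3 group means over all 6 arrays was fitted with limma 3.58.1 in R 4.3.3 (lmFit, then eBayes). The code was also run on simulated data with independent normal noise. Such data hold no effects shared across the genes of an array and no mixed cells, so that run does not test for these. The model had 3 residual degrees of freedom, and moderation added 2.18. Tests were two-sided, with Benjamini-Hochberg adjustment over all genes and a threshold of 0.05. A called gene is one past it; SE is limma's. The position of a gene in neonatal cardiomyocytes is the place of their mean between the other means.

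The comparison and the 44 gene lists were chosen with earlier results of these data known. Named are the 15 largest called differences each way whose arrays do not overlap, 4 markers, both members of each pair of related genes, and of each list up to 4 called members with the largest difference, the first 2 written, up to 2 called against most of the list, and, where none was called, the 2 with the smallest p. Clone-style symbols were left out of the first set. The rule takes 279 genes, of which the report describes 217. The alternatives were the titles' grouping, other array sets, a replicate block, 2 other scalings, the mean of probe sets, a filter on low values, an intensity trend and leaving out each array. The number of arrays limits the precision. Promoter sequences are RefSeq's (GRCm38.p6), matched by Entrez gene identifier.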

Additional observations from a re-analysis of the deposited data

How the results depend on the processing

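Of the 3829 genes called (1829 higher, 2000 lower), the count stayed within 1.5 times under both other scalings, the mean of probe sets, the filter on low values, the intensity trend and the fit of only the 4 arrays compared. Leaving out either neonatal cardiomyocyte array gave the same counts as the fit of only the 4 arrays, so these alternatives are not separate checks. With the titles' grouping 137 were called (40 higher, 97 lower). Leaving out both neonatal arrays of number 1 gave 717 (428 higher, 289 lower). Leaving out both of number 2, an alternative chosen after seeing the data, gave 1574 (819 higher, 755 lower). Leaving out 1 array at a time gave from 0 to 3823 calls, from 0 to 1710 higher and from 0 to 2113 lower. The lowest was without adult replicate 1, where limma called 0 genes and 4591 had an unadjusted p under 0.05. The smallest adjusted p there was 0.0613.

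A fit with the replicate number as a replicate block called 4811 genes, 2131 higher and 2680 lower. Same-numbered arrays of different groups shared deviations at r from 0.18 to 0.27 across genes. The groups have only 2 numbers each, so this check does not settle whether the numbers pair the arrays, and it changed 6 of the 217 named genes' calls. With the block Ccnd2, Igf1, Il1b and Kdr were no longer called (limma adjusted p = 0.0521, 0.0514, 0.0547 and 0.0556), and Tagln and Tnni3 were (0.0170 and 0.0439). The creatine kinase, myoglobin and ketone list went from 9 to 8 calls upward. The lists of smooth muscle and pericytes and of chemokines and inflammation each went from 4 to 3 upward. Glucose metabolism went from 12 to 15 upward. Calls downward rose from 11 to 15 for fibroblast identity and from 18 to 23 for the actin cytoskeleton, and counts of other lists moved as well.

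Of the 217 genes named in the report, 5 changed direction under at least 1 of the 16 alternatives, and all 5 were uncalled. With the titles' grouping the differences were −1.40 for Myh7, −1.95 for Myl4, −0.17 for Gata4 and −0.17 for Ldha. Leaving out 1 array at a time gave from −1.56 to 3.31 for Myl4, from −0.57 to 1.40 for Gata4 and from −2.26 to 1.14 for Igf2. Without both neonatal arrays of number 1 Myl4 was at −0.63, and without both of number 2 Gata4 was at −0.43 and Igf2 at 1.14. The naming rule takes 279 genes, and 62 of them (26 called) are not described. Of all 279, 17 changed direction under at least 1 alternative and 0 of these were called; those not described are Adipoq, Alas2, Atp2a3, Cox8a, Hba-a1, Ifit1, Il6, Itga5, Itga7, Pfkp, Slc25a5 and Tgfb1. The described genes were chosen with these reversals known. The call was lost for 197 of the 217 without adult replicate 1 and for 145 without adult replicate 2. With the mean of probe sets 17 lost it and 3 gained it. Low genes have no detection call, and values near the top of the range may understate a difference, which was not measured.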
